A study of Mus musculus with 16 samples.

Results

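The 39 HOX genes of the mouse were followed in cultured PDGFRb+ cells of inguinal white fat. Members were the entries whose symbol is Hox followed by a cluster letter from a to d and a paralog number, and all 39 were found among the 27179 entries of the normalized count table. The cells came from C57BL/6 mice, were sorted by flow cytometry for PDGFRb, a receptor of perivascular and progenitor cells, and were split into DPP4_neg and DPP4_pos APCs. DPP4 is a surface peptidase used to mark interstitial progenitors of subcutaneous fat. Both populations were cultured in medium with 10% serum. The cells then stayed for 4 h with PBS (vehicle) or with isoproterenol, which activates the beta-adrenergic receptors. The labelled dose is 10 mM, far above the micromolar doses usual in culture, and a wrong unit in the label cannot be told apart from a high dose. Each of the 4 groups (DPP4_neg vehicle, DPP4_neg isoproterenol, DPP4_pos vehicle and DPP4_pos isoproterenol) had 4 libraries. No genetic change is named in the labels. The labels also do not say whether the libraries of a group came from separate animals or cultures, so a p-value here weighs a difference only against the library-to-library spread, and that spread may be technical.

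HOX genes encode homeodomain transcription factors that give cells their position along the body axis. They lie in 4 clusters, and the genes at the same place in different clusters are paralogs with a shared number. Low numbers are used from the hindbrain backwards and high numbers in the trunk, limbs and tail. Stromal and fat progenitor cells of an adult keep a HOX pattern of the place where they arose, also in culture. In the RefSeq table of the GRCm38.p6 build, HOXA lies on chromosome 6 and HOXB occupies chromosome 11 from 96194316 to 96368254. HOXC occupies chromosome 15 from 102921131 to 103036856 and HOXD chromosome 2 from 74668225 to 74765142.

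Reads in genes, obtained from the normalized counts, ranged from 9823799 to 28627223 per library. The sorted populations differed in Dpp4 as labelled: DPP4_neg libraries had 21.1 ± 4.16 normalized counts under vehicle and 9.89 ± 2.29 under isoproterenol, and DPP4_pos libraries 3053 ± 186 and 2223 ± 97.7 (mean ± SD, n = 4, as throughout). Pdgfrb was at 2105 normalized counts or more in the mean of every group. The 3 identity markers Pdgfrb, Pdgfra and Dpp4 were all lower under isoproterenol in each population, where 33.6% (DPP4_neg) and 43.3% (DPP4_pos) of all genes fell. Their sums were 24233.7 to 25042.5 under vehicle and 18614.9 to 20514.2 under isoproterenol in DPP4_neg libraries. In DPP4_pos libraries they were 43424.9 to 44659.7 and 14360.3 to 15334.4. The 5 epithelial markers summed to at most 93.1 normalized counts in any library, and Pax7 and Myog of skeletal muscle had no read. The 5 skeletal muscle markers, mostly Acta1, summed under vehicle to 689 to 922 (DPP4_neg) against 39.9 to 57.2 (DPP4_pos), and under isoproterenol to 311 to 458 against 23.4 to 29.6. The 5 mesothelial markers, mostly Krt19, summed to 620.2 to 802 and 1278 to 1719 in DPP4_neg, and to 89.5 to 136 and 122 to 179 in DPP4_pos libraries, under vehicle and isoproterenol. The 6 endothelial markers summed to 159 to 211 normalized counts in DPP4_neg and 1097 to 1293 in DPP4_pos libraries, mostly Tek and Kdr, and none of the 6 was at 0. The 6 mural markers summed to 4899 to 7307 in DPP4_neg and 1099 to 1755 in DPP4_pos libraries, but as single genes they were split. Under vehicle 2 of them were lower and 1 higher in DPP4_pos, beside 35.0% and 31.6% of all genes. Under isoproterenol 3 were lower and 3 higher, beside 37.0% and 37.4%. The 9 macrophage and leukocyte markers summed to 369 to 1543 in all libraries. The part of these markers in the HOX differences was not tested. In bulk RNA, fewer cells that carry a gene and less RNA of it per cell cannot be told apart.

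HOXC supplied most HOX RNA in every library. On the scale of normalized counts per kb of transcript, which allows genes to be compared, the 39 genes summed to 3537 ± 37.4 in DPP4_neg vehicle, 4366 ± 152.6 in DPP4_neg isoproterenol, 3242 ± 47.4 in DPP4_pos vehicle and 3174 ± 34.3 in DPP4_pos isoproterenol libraries. HOXC made up 67.9% ± 0.241 of this sum under vehicle in DPP4_neg and 64.2% ± 0.789 in DPP4_pos libraries. Under isoproterenol its share was 78.3% ± 0.876 in DPP4_neg and 76.6% ± 0.802 in DPP4_pos libraries. HOXB held 17.0% ± 0.880 and 16.9% ± 0.692 under vehicle, and 12.7% ± 0.466 and 10.6% ± 0.707 under isoproterenol, in DPP4_neg and DPP4_pos libraries respectively. HOXA held 13.8% ± 0.733 and 14.8% ± 0.0943 under vehicle, and 8.30% ± 0.323 and 10.4% ± 0.240 under isoproterenol. HOXD was the smallest share throughout, at 1.19% ± 0.0947 in DPP4_neg vehicle, 0.632% ± 0.144 in DPP4_neg isoproterenol, 4.02% ± 0.211 in DPP4_pos vehicle and 2.35% ± 0.156 in DPP4_pos isoproterenol libraries. In every HOXC and HOXD share the libraries under vehicle did not overlap with those under isoproterenol of the same population. The HOXA sum per kb was lower under isoproterenol in both populations (489 to 362 in DPP4_neg, 481 to 332 in DPP4_pos), while the HOXC sum was higher (2403 to 3420 and 2083 to 2433). The rise of the HOXC sum in DPP4_pos depends on the scaling: with total-count scaling it went from 2244 ± 58.7 to 2169 ± 39.2, with overlapping libraries, and in DPP4_neg from 2476 ± 25.8 to 3493 ± 134. Shares of the HOX sum do not depend on it.

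**Figure D1:**
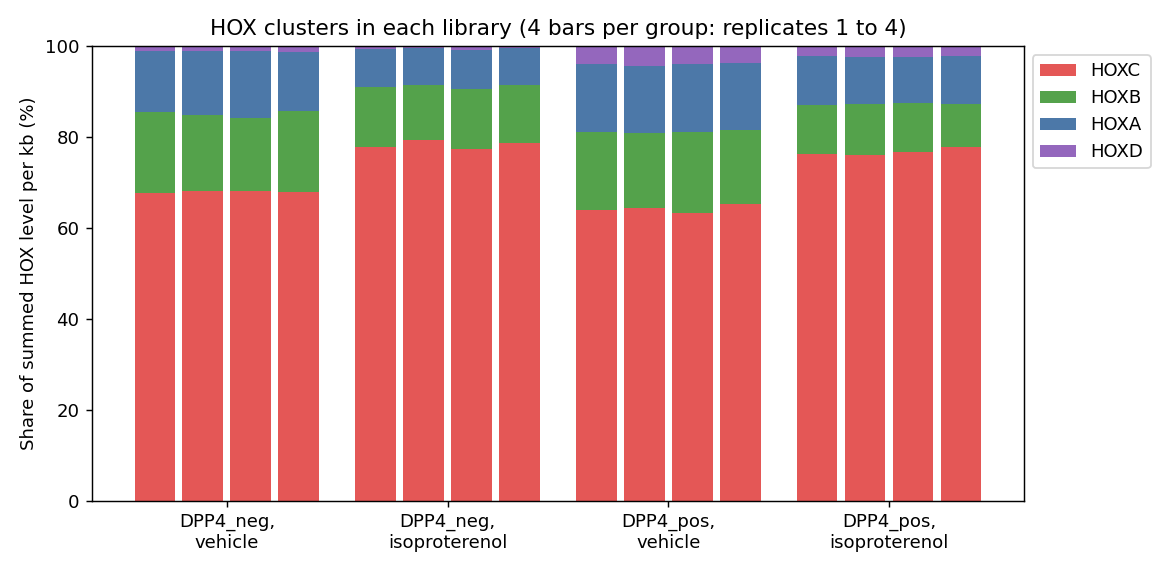
Stacked bars give the share of each HOX cluster, in percent, of the summed HOX level per kb in each of the 16 libraries, 4 bars to a group. HOXC takes 64.2% to 78.3% of the group means, and HOXD is widest in DPP4_pos vehicle libraries at 4.02%.

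The levels peaked at paralog numbers 6, 8 and 10 and dropped at 11. Paralog group 10 summed to 865 ± 28.3 normalized counts per kb in DPP4_neg vehicle libraries, group 6 to 733 ± 27.5 and group 8 to 609.8 ± 11.9, most of it from HOXC. Group 11 came to 23.2 ± 1.97 there, and group 12 to 37.5 ± 6.28. Group 13 was higher again in DPP4_neg, at 170 ± 10.1 under vehicle and 75.6 ± 8.26 under isoproterenol. In DPP4_pos libraries group 13 was at 35.7 ± 3.93 and 8.04 ± 2.51. In DPP4_pos isoproterenol libraries group 10 and group 6 were at 921 ± 18.9 and 916 ± 43.4, which do not differ beyond their spread. Hoxc10, a posterior HOX gene known as a mark of subcutaneous fat, had the highest mean per kb over the 16 libraries at 793, before Hoxc6 at 774, Hoxc8 at 529 and Hoxc9 at 223. In HOXA the highest was Hoxa10 at 167, in HOXB Hoxb7 at 109 before Hoxb4 at 93.5, and in HOXD Hoxd8 at 48.3. Over the joint length of all exons of a gene, instead of its longest RefSeq transcript, Hoxb4 came before Hoxb7 (93.5 against 90.8 per kb) and Hoxc6 was at 508 per kb, and the genes with the highest level in HOXA, HOXC and HOXD stayed the same.

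Few reads fell on 9 genes, among them the posterior genes of HOXD and the ends of HOXA and HOXB. These 9 were below the filter on low values and were not tested. Over all 16 libraries together Hoxa11 had 54 reads, Hoxb13 17, Hoxd10 10, Hoxb1 6, Hoxa13 5, Hoxd11 4, Hoxd1 3, Hoxd12 3 and Hoxd13 2. The other 30 reached 10 normalized counts in at least 4 libraries and were tested, 9 of 11 in HOXA, 8 of 10 in HOXB, 9 of 9 in HOXC and 4 of 9 in HOXD. Hoxc12 (299 reads) passed through DPP4_neg libraries alone, and Hoxd3 (219) and Hoxd9 (187) through DPP4_pos libraries alone, so a difference between the populations was built into their passing.

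**Figure D2:**
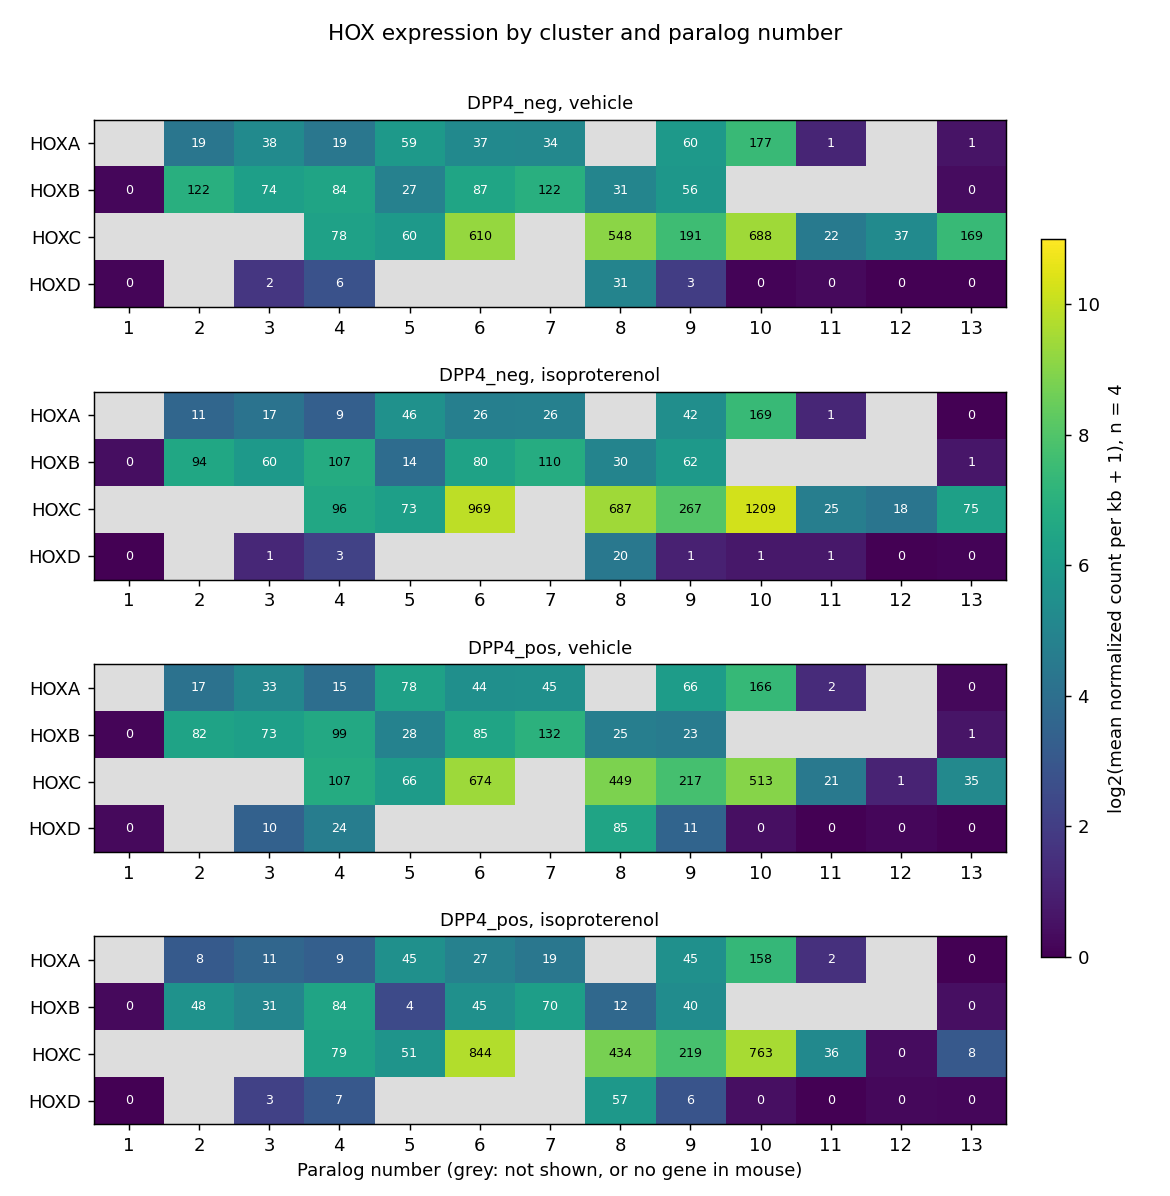
Each panel is a group; rows are HOX clusters, columns paralog numbers, and numbers are mean normalized counts per kb (n = 4), coloured on a log2 scale. HOXC columns 6, 8 and 10 are brightest in all 4 panels (Hoxc10 from 513 to 1209), while Hoxc12 and Hoxc13 are dark in DPP4_pos and HOXD columns 3 to 9 are brighter there.

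DPP4_pos APCs under vehicle had more HOXD RNA and less RNA of Hoxc13, the last HOXC gene, than DPP4_neg APCs. Of the 30 HOX genes, 9 were higher and 7 lower (limma adjusted p under 0.05), where 31.6% of all 14005 genes tested were higher and 35.0% lower. Calls in either direction were thus no more frequent among the HOX genes than over all genes. The HOX median log2 difference was 0.03 against −0.01 over all genes. The 4 libraries of DPP4_pos and DPP4_neg did not overlap for 15 of the 30 genes, against 67.3% of all genes tested. By cluster, all 4 tested HOXD genes were higher (for Hoxd3 and Hoxd9 the filter favours this). HOXA had 1 higher and 1 lower of 9, and HOXB 1 higher and 2 lower of 8. HOXC had 3 higher and 4 lower of 9, where the filter favours the lower level of Hoxc12. The 14 genes with no call include Hoxa10, with a difference of −0.10 ± 0.06 on the log2 scale.

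The 4 expressed HOXD genes lie next to each other in the middle of their cluster. Hoxd4 and Hoxd8 were both higher in DPP4_pos libraries, as were Hoxd3 and Hoxd9, for which the filter favours this. To show these neighbours, the 250 bases before each start site are printed, from RefSeq with GRCm38.p6, where 22 of the 39 HOX genes had a promoter in the table. All 4 lie on the plus strand of chromosome 2: Hoxd9 at chr2:74697513-74697762, Hoxd8 at chr2:74704365-74704614, Hoxd3 at chr2:74711743-74711992 and Hoxd4 at chr2:74721728-74721977. Capitals mark matches on either strand to TGACG from the cAMP response element, to the CCAAT box, to AGGTCA as the half-site of nuclear receptors, to GGGCGG as the GC box, and to TGATTNAT as a site of PBX with HOX proteins.
Hoxd9: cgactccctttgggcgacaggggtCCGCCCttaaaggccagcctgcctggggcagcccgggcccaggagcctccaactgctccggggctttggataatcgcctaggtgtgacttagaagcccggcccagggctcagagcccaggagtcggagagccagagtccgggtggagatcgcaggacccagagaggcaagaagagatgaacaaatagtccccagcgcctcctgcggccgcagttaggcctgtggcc
Hoxd8: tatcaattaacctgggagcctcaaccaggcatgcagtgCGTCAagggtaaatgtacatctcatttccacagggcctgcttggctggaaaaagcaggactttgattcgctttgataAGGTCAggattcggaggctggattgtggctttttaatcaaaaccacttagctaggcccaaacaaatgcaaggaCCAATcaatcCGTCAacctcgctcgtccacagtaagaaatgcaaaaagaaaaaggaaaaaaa
Hoxd3: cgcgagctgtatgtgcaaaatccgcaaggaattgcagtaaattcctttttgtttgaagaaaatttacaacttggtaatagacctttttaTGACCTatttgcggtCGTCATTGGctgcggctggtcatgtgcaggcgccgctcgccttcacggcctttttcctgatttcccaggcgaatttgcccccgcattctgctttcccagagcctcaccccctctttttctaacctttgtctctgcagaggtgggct
Hoxd4: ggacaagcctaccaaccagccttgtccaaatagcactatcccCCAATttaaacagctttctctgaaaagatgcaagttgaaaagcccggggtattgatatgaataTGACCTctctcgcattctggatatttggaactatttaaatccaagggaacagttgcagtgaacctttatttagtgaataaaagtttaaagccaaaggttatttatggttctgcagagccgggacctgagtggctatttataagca
Hoxd3, Hoxd4 and Hoxd8 each held 1 CCAAT and 1 AGGTCA match, Hoxd8 held 2 TGACG matches and Hoxd3 held 1, which overlaps its CCAAT match. Hoxd9 held 1 GGGCGG match, and none of the 4 held TGATTNAT. Of the 32851 promoter windows of 250 bases in the table, 33.8% held CCAAT, 14% AGGTCA, 17.8% TGACG, 32.7% GGGCGG and 2.82% TGATTNAT, so these matches describe the windows and are not sites.

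Hoxd8, a mid-cluster gene of trunk mesoderm, was the main HOXD transcript. The DPP4_neg vehicle libraries held 74.7, 73.0, 82.3 and 92.0 normalized counts of it, and those of DPP4_pos held 227, 239, 213 and 219. All DPP4_pos libraries were above all DPP4_neg libraries, 2.77-fold on the log2(normalized count + 1) scale used for all folds (log2 difference 1.47 ± 0.13, limma adjusted p = 2.60e-09). Hoxd4 was at 14.7 ± 3.26 against 62.1 ± 6.54 normalized counts (log2 difference 2.02 ± 0.28), Hoxd3 at 6.87 ± 1.22 against 28.6 ± 4.06 (1.91 ± 0.32), and Hoxd9 at 6.27 ± 1.93 against 22.8 ± 2.14 (1.74 ± 0.39). Hoxd3 and Hoxd4 overlap in 62.8% and 52.3% of their exon length with each other or with noncoding genes there, so their values are uncertain as separate genes, whereas exons of Hoxd8 and Hoxd9 overlap no other gene. The endothelial marker sum moved the same way between the populations, from 159 to 188 in DPP4_neg vehicle to 1097 to 1154 in DPP4_pos vehicle libraries, and its part was not tested.

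Hoxc13, which controls hair and nail keratin genes in skin, ran the other way and was the most changed HOX gene with a mean above 50 normalized counts. Under vehicle its normalized counts were 446, 383, 416 and 419.5 in DPP4_neg and 93.2, 76.5, 96.5 and 78.6 in DPP4_pos. The groups were far apart, with a 4.80-fold lower level in DPP4_pos (log2 difference −2.26 ± 0.19, limma adjusted p = 1.00e-09). Its neighbour Hoxc12, singled out after its values were seen because its mean is below 50, had 214 reads over the DPP4_neg libraries and 6 over the DPP4_pos libraries under vehicle. It passed the filter through DPP4_neg libraries alone, so these reads are a description. The mural, mesothelial and skeletal muscle marker sums were also lower in DPP4_pos, though of the 6 mural genes under vehicle 2 were lower and 1 higher. Epithelial markers, from the tissue where Hoxc13 is best known, summed under vehicle to at most 43.3 (DPP4_neg) and 2.69 (DPP4_pos). The part of any of these in Hoxc13 was not tested. Hoxc11, the next gene of the cluster, was at 44.0 ± 5.27 against 42.6 ± 5.46 with no call (−0.04 ± 0.14), and Hoxc10 was lower in DPP4_pos by 1.34-fold (−0.42 ± 0.04).

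Hoxb9, the last tested gene of HOXB, was also lower in DPP4_pos. Its normalized counts under vehicle were 167, 133, 121 and 152 in DPP4_neg and 72.6, 55.7, 54.9 and 50.7 in DPP4_pos, with no overlap (2.43-fold, log2 difference −1.28 ± 0.14, limma adjusted p = 6.01e-08). Towards the other end of the cluster Hoxb2, a hindbrain gene, was at 199 ± 16.1 against 133 ± 8.43 (−0.57 ± 0.12). Among the smaller calls, Hoxc8 was lower (−0.29 ± 0.05), and Hoxa5, Hoxb4, Hoxc4, Hoxc6 and Hoxc9 were higher by 0.15 to 0.45 on the log2 scale. The limma call of Hoxa5 (adjusted p = 0.0352) ended on leaving out any of 5 libraries in turn (limma adjusted p up to 0.112, without DPP4_neg vehicle replicate 4), and that of Hoxc9 on leaving out any of 4 (up to 0.104, without DPP4_pos vehicle replicate 4).

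**Figure D3:**
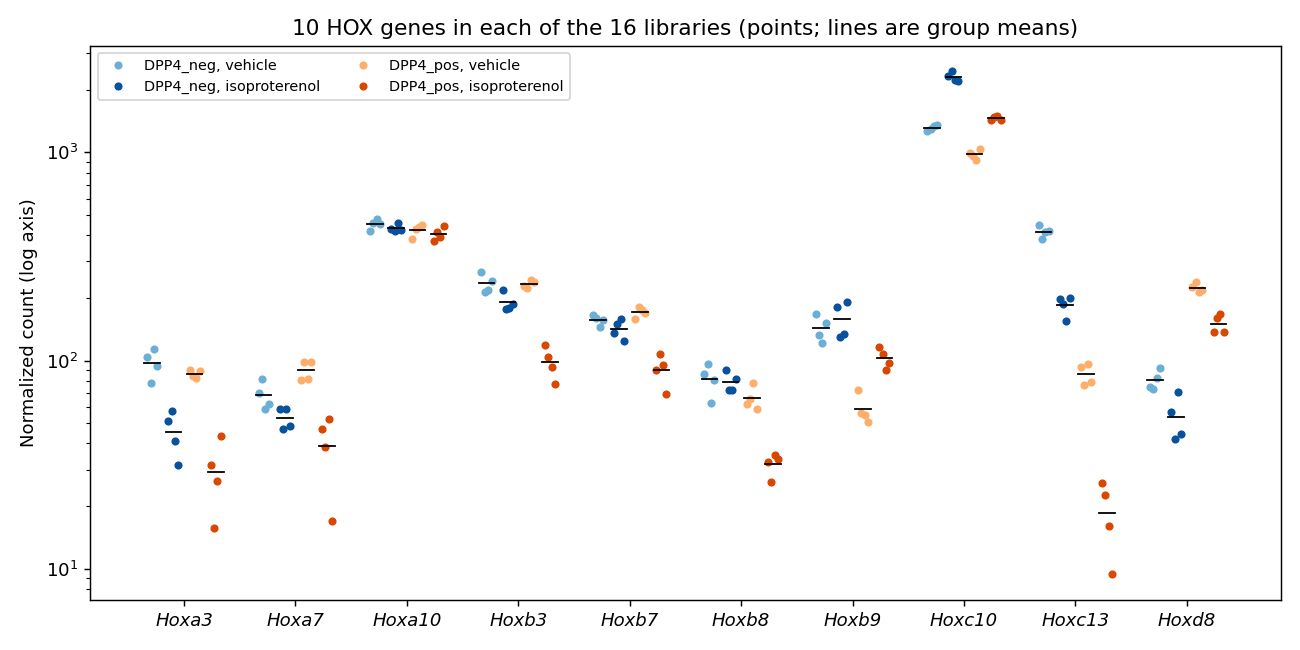
Points are normalized counts in each library on a log axis for 10 HOX genes, coloured by group, and lines are group means. Hoxc13 steps down from 416 to 18.5 between the group means, Hoxd8 sits higher in DPP4_pos, and Hoxa10 stays between 378 and 479.9 in all 16 libraries.

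Isoproterenol in DPP4_neg APCs was followed by less RNA of Hoxa2, Hoxa3, Hoxb2, Hoxb3 and Hoxd3 and more of Hoxc4 to Hoxc10, while the last HOXC genes, Hoxc12 and Hoxc13, fell. Of 30 HOX genes 7 rose and 14 fell, where 32.1% of all genes tested rose and 33.6% fell, and the HOX median was −0.36 against −0.02 over all genes. Groups did not overlap for 18 HOX genes, against 58.9% of all genes tested. Hoxa2, Hoxa3, Hoxb2, Hoxb3 and Hoxd3 fell (Hoxa2, Hoxb2 and Hoxb3 had no call with quantile normalization), as did all 4 tested HOXD genes and 5 of 9 HOXA genes with none rising. In HOXC 6 rose and 2 fell, and in HOXB 1 rose and 3 fell. The calls of Hoxa2, Hoxb3, Hoxc12, Hoxd3 and Hoxd4 each ended on leaving out any of 3 to 5 DPP4_neg libraries in turn, with limma adjusted p up to 0.140 (Hoxd3, without DPP4_neg isoproterenol replicate 3). Those of Hoxa2, Hoxd3 and Hoxd4 also ended with no filter. The call of Hoxd3 ended with edgeR (adjusted p = 0.0797), DESeq2 (0.137) and a pseudocount of 5. That of Hoxd4 ended with DESeq2 (adjusted p = 0.0509), quantile normalization and a fit of only the groups compared.

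Hoxc10 rose most. It had 1269, 1295, 1339 and 1353 normalized counts in DPP4_neg vehicle and 2341, 2458, 2234 and 2202 in DPP4_neg isoproterenol libraries, a 1.76-fold rise without overlap (log2 difference 0.81 ± 0.04, limma adjusted p = 1.81e-13). Hoxc6 rose by 0.67 ± 0.04, Hoxc9 by 0.48 ± 0.07, Hoxc8 by 0.32 ± 0.05, Hoxc4 by 0.30 ± 0.09 and Hoxc5 by 0.28 ± 0.09. Outside HOXC, Hoxb4 was the single gene of the 30 that rose (0.33 ± 0.07). Hoxc13 fell to 197, 187, 155 and 199.5 normalized counts, all under the vehicle libraries (−1.17 ± 0.19, limma adjusted p = 1.71e-05). Within HOXC the ratio of Hoxc13 to Hoxc10 normalized counts went from 0.317 ± 0.0241 to 0.0800 ± 0.00930.

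Hoxa3, a gene of the pharyngeal arches and thymus, had 104, 77.9, 114 and 94.1 normalized counts in DPP4_neg vehicle and 51.0, 57.3, 41.0 and 31.5 in DPP4_neg isoproterenol libraries. It fell 2.16-fold without overlap (−1.11 ± 0.22, limma adjusted p = 0.000159), and 27.1% of its exon length is shared with noncoding or antisense genes. Hoxa4, the next gene of the cluster, fell from 30.8 ± 3.47 to 14.6 ± 3.17 (−1.05 ± 0.26). Hoxb3, over which an antisense RNA runs for 52.9% of the exon length, had 266, 213, 219 and 242 and then 219, 176, 179.8 and 188 normalized counts, overlapping groups with a small fall (−0.30 ± 0.11). Hoxb7 (166, 161, 146 and 156, then 136, 151, 158 and 125) and Hoxb8 (86.2, 96.4, 62.7 and 80.5, then 89.9, 71.9, 72.6 and 81.4) overlapped and had no call, at −0.15 ± 0.11 and −0.03 ± 0.15. Hoxb9 (181, 129, 134 and 192 under isoproterenol) had none either (0.14 ± 0.14), nor had Hoxa7, at 70.2, 81.8, 58.8 and 62.3 under vehicle and 58.3, 47.0, 58.4 and 48.6 under isoproterenol (−0.35 ± 0.23). Hoxd8 fell to 56.7, 41.8, 71.0 and 44.6 normalized counts, all below the vehicle libraries (−0.61 ± 0.13, limma adjusted p = 0.000442).

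In DPP4_pos APCs most HOX genes had less RNA under isoproterenol. Of 30 HOX genes 4 rose and 21 fell, where 39.4% of all genes tested rose and 43.3% fell, with a HOX median of −0.76 against −0.05. Groups did not overlap for 25 HOX genes, against 77.8% of all genes tested. HOXA had 8 falls of 9 and no rise, HOXB 7 falls and 1 rise of 8, HOXC 3 falls and 3 rises of 9, and HOXD 3 falls of 4. Hoxa2, Hoxa3, Hoxb2, Hoxb3 and Hoxd3 fell here too, as did 13 of 15 genes of paralogs 4 to 8. Hoxd3 would not have passed the filter without its high DPP4_pos vehicle libraries, so the filter favours its fall here. The 4 that rose were Hoxb9, Hoxc6, Hoxc10 and Hoxc11. The normalized counts of these isoproterenol libraries summed to 18373900 to 18618400, against 15179000 to 16241000 in the other 12 libraries, so the choice of scaling bears on this comparison. With total-count scaling the median over all genes was −0.33, 32.9% of all calls were higher instead of 47.6%, and 3 HOX genes rose and 25 fell. Hoxc9 then fell (−0.26, from 0.02 ± 0.07) and the rise of Hoxc6 (0.32 ± 0.04) was lost, at 0.05. HOXC then had 2 rises and 5 falls. With quantile normalization 4 HOX genes rose and 17 fell: the falls of Hoxa4, Hoxa6, Hoxb4, Hoxc4 and Hoxc5 were lost and Hoxc8 fell (−0.20).

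Hoxc13 fell here to the lowest level of the 4 groups, 25.8, 22.6, 16.1 and 9.40 normalized counts against 93.2, 76.5, 96.5 and 78.6 under vehicle (4.74-fold, log2 difference −2.24 ± 0.19, limma adjusted p = 5.32e-10). Hoxa3 fell from 90.5, 84.7, 82.4 and 88.7 to 31.5, 15.7, 26.3 and 43.2 without overlap (−1.62 ± 0.22). Hoxa7, active in trunk mesoderm, fell from 80.7, 98.8, 81.5 and 98.8 to 47.2, 38.3, 52.6 and 16.9 (−1.30 ± 0.23). Its lowest library, replicate 4 at 16.9, lies well below the other 3 under isoproterenol, which run from 38.3 to 52.6, and without it the log2 difference was −0.96. The steepest fall of any HOX gene was that of Hoxb5, noted after its values were seen, from 53.4 ± 2.59 to 8.47 ± 3.77 normalized counts (−2.62 ± 0.26, limma adjusted p = 6.32e-09, 254 and 24 reads).

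The HOXB genes around it fell together, except the last. Hoxb3 went from 228, 224, 244 and 238 to 119, 105, 93.5 and 77.0 (−1.25 ± 0.11), Hoxb7 from 158, 181, 174 and 169 to 89.9, 108, 95 and 69.5 (−0.92 ± 0.11), and Hoxb8 from 61.8, 65.4, 77.9 and 58.3 to 32.6, 26.1, 35.1 and 33.8 (−1.02 ± 0.15). None of these 3 had overlapping groups. Hoxb9 rose without overlap, from 72.6, 55.7, 54.9 and 50.7 to 116, 108, 90.6 and 97.7 (0.81 ± 0.14, limma adjusted p = 2.00e-05). Hoxc10 rose from 996, 964, 921 and 1037 to 1428, 1479, 1492 and 1424 (0.57 ± 0.04), and Hoxc11 from 42.6 ± 5.46 to 73.1 ± 6.90 (0.77 ± 0.14). Hoxd8 fell from 227, 239, 213 and 219 to 137, 160.3, 168 and 137 (−0.58 ± 0.13), and so did Hoxd4 (−1.78 ± 0.28) and Hoxd3 (−1.47 ± 0.32, favoured by the filter). Hoxa10 was at 385, 429.5, 438 and 446 normalized counts under vehicle and 378, 413, 393 and 442 under isoproterenol in DPP4_pos, and at 420.2, 461, 479.9 and 455, then 428, 419, 459 and 423, in DPP4_neg. The groups compared overlapped, and it had no call in any of the 5 comparisons, while total-count scaling gave it a fall in DPP4_pos (−0.34).

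The other HOX genes are given by their mean normalized counts ± SD (n = 4) in DPP4_neg vehicle, DPP4_neg isoproterenol, DPP4_pos vehicle and DPP4_pos isoproterenol libraries, in that order. The log2 response to isoproterenol ± SE in DPP4_neg and then in DPP4_pos follows in parentheses. In HOXA the means of Hoxa2, a hindbrain and second arch gene, were 34.0 ± 4.51, 20.2 ± 3.87, 30 ± 5.30 and 13.6 ± 7.22 (−0.73 ± 0.30 and −1.22 ± 0.30). Those of Hoxa4 were 30.8 ± 3.47, 14.6 ± 3.17, 23.5 ± 4.87 and 14.5 ± 5.89 (−1.05 ± 0.26 and −0.73 ± 0.26). Hoxa9 was at 192 ± 18.2, 135 ± 8.72, 212 ± 9.2 and 144 ± 16.6 (−0.50 ± 0.09 and −0.56 ± 0.09). These 3 genes fell in both populations, with overlap between the groups for Hoxa4 in DPP4_pos. That call of Hoxa4 ended without DPP4_pos vehicle replicate 1 or DPP4_pos isoproterenol replicate 2 (−0.44, limma adjusted p = 0.0751, without the latter), with DESeq2 (adjusted p = 0.0582) and with quantile normalization (−0.27). Hoxa5, needed for lung development, was at 111 ± 12.7, 86.8 ± 19.4, 146 ± 7.58 and 84.9 ± 22.9 (−0.37 ± 0.16 and −0.81 ± 0.16). Hoxa6 was at 31.9 ± 8.28, 22.4 ± 6.52, 38.1 ± 3.77 and 24 ± 4.28 (−0.50 ± 0.23 and −0.66 ± 0.23). Both fell in DPP4_pos without overlap, and neither passed the test in DPP4_neg, where the groups overlapped. The fall of Hoxa6 was lost with quantile normalization (−0.16).

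In HOXB the means of Hoxb2 were 199 ± 16.1, 153 ± 15.1, 133 ± 8.43 and 78 ± 15 (−0.38 ± 0.12 and −0.79 ± 0.12). Those of Hoxb5 were 51.7 ± 10.9, 26.3 ± 6.95, 53.4 ± 2.59 and 8.47 ± 3.77 (−0.96 ± 0.26 and −2.62 ± 0.26). Both genes fell in both populations without overlap. Hoxb6 was at 114 ± 5.53 and 105 ± 15.8 in DPP4_neg, a difference that did not pass the test, and its DPP4_pos libraries were at 110.2, 106, 123 and 108 under vehicle and 52.8, 55.8, 54.1 and 75.2 under isoproterenol (−0.91 ± 0.12). Hoxb4, a neighbour of Hoxb5, was at 217 ± 3.37, 273 ± 11.6, 255 ± 12.4 and 216 ± 15.6 (0.33 ± 0.07 and −0.24 ± 0.07). It rose in DPP4_neg and fell in DPP4_pos, with no overlap in either. The ratio of Hoxb5 to Hoxb4 counts was 0.239 under vehicle and 0.0970 under isoproterenol in DPP4_neg, and it was 0.210 and 0.0392 in DPP4_pos.

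In HOXC the means of Hoxc6 were 964 ± 24.5, 1532 ± 62.4, 1066 ± 27.8 and 1334 ± 59.2 (0.67 ± 0.04 and 0.32 ± 0.04), a rise in both populations (lost in DPP4_pos with total-count scaling). Those of Hoxc8 were 1024 ± 22.4, 1283 ± 69.7, 839 ± 40.4 and 810 ± 61.3 (0.32 ± 0.05 and −0.05 ± 0.05). Hoxc9 was at 453 ± 22.4, 633 ± 33.6, 514 ± 45.9 and 519 ± 40.2 (0.48 ± 0.07 and 0.02 ± 0.07). Hoxc8 and Hoxc9 rose in DPP4_neg and had overlapping groups and no call in DPP4_pos. Hoxc4 was at 155 ± 9.73, 191 ± 17.6, 212 ± 18.2 and 156 ± 17.8 (0.30 ± 0.09 and −0.44 ± 0.09). Hoxc5 was at 175 ± 16.6, 213 ± 19.7, 192 ± 12.3 and 150.4 ± 15.7 (0.28 ± 0.09 and −0.35 ± 0.09). Both rose in DPP4_neg, where the groups of Hoxc5 overlapped, and fell in DPP4_pos without overlap.

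In HOXD the means of Hoxd4 were 14.7 ± 3.26, 8.96 ± 3.64, 62.1 ± 6.54 and 18.4 ± 7.17 (−0.71 ± 0.28 and −1.78 ± 0.28). Those of Hoxd3 were 6.87 ± 1.22, 3.93 ± 2.32, 28.6 ± 4.06 and 9.84 ± 2.44 (−0.79 ± 0.32 and −1.47 ± 0.32). Both fell in both populations, with overlapping groups in DPP4_neg, and the filter favours the fall of Hoxd3 in DPP4_pos. Hoxd9 was at 6.27 ± 1.93, 2.13 ± 1.45, 22.8 ± 2.14 and 13.1 ± 3.49 (−1.37 ± 0.39 and −0.78 ± 0.39). It fell in DPP4_neg, and in DPP4_pos its groups did not overlap but the difference missed the threshold (limma adjusted p = 0.0671). The fall of Hoxd9 in DPP4_pos was called with edgeR (adjusted p = 0.00569) and DESeq2 (0.0304). It was also called with a pseudocount of 5, only the groups compared and total-count scaling. The filter favours this fall, as for Hoxd3. Hoxc12 was at 38.6 ± 6.47, 18.9 ± 3.38, 1.20 ± 0.973 and 0.281 ± 0.562, and it fell in DPP4_neg (limma adjusted p = 0.0267).

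The responses of the populations share no library. In both populations 12 genes fell, 85.7% of those that fell in DPP4_neg and 57.1% of those that fell in DPP4_pos, among them Hoxa3, Hoxa9, Hoxb2, Hoxb5, Hoxc13 and Hoxd8. The 12 include Hoxd3, whose fall in DPP4_pos the filter favours. Over all genes tested 3697 fell in both, 78.6% and 61.0% of the falls in each, so the HOX shares are near those of all genes. Hoxc6 and Hoxc10 rose in both, and the rise of Hoxc6 in DPP4_pos was lost with total-count scaling (0.05). Hoxb4, Hoxc4 and Hoxc5 rose in DPP4_neg and fell in DPP4_pos: the log2 differences were 0.33 ± 0.07 and −0.24 ± 0.07 for Hoxb4, 0.30 ± 0.09 and −0.44 ± 0.09 for Hoxc4, and 0.28 ± 0.09 and −0.35 ± 0.09 for Hoxc5. The falls of these 3 in DPP4_pos were lost with quantile normalization (−0.04, −0.15 and −0.04).

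**Figure D4:**
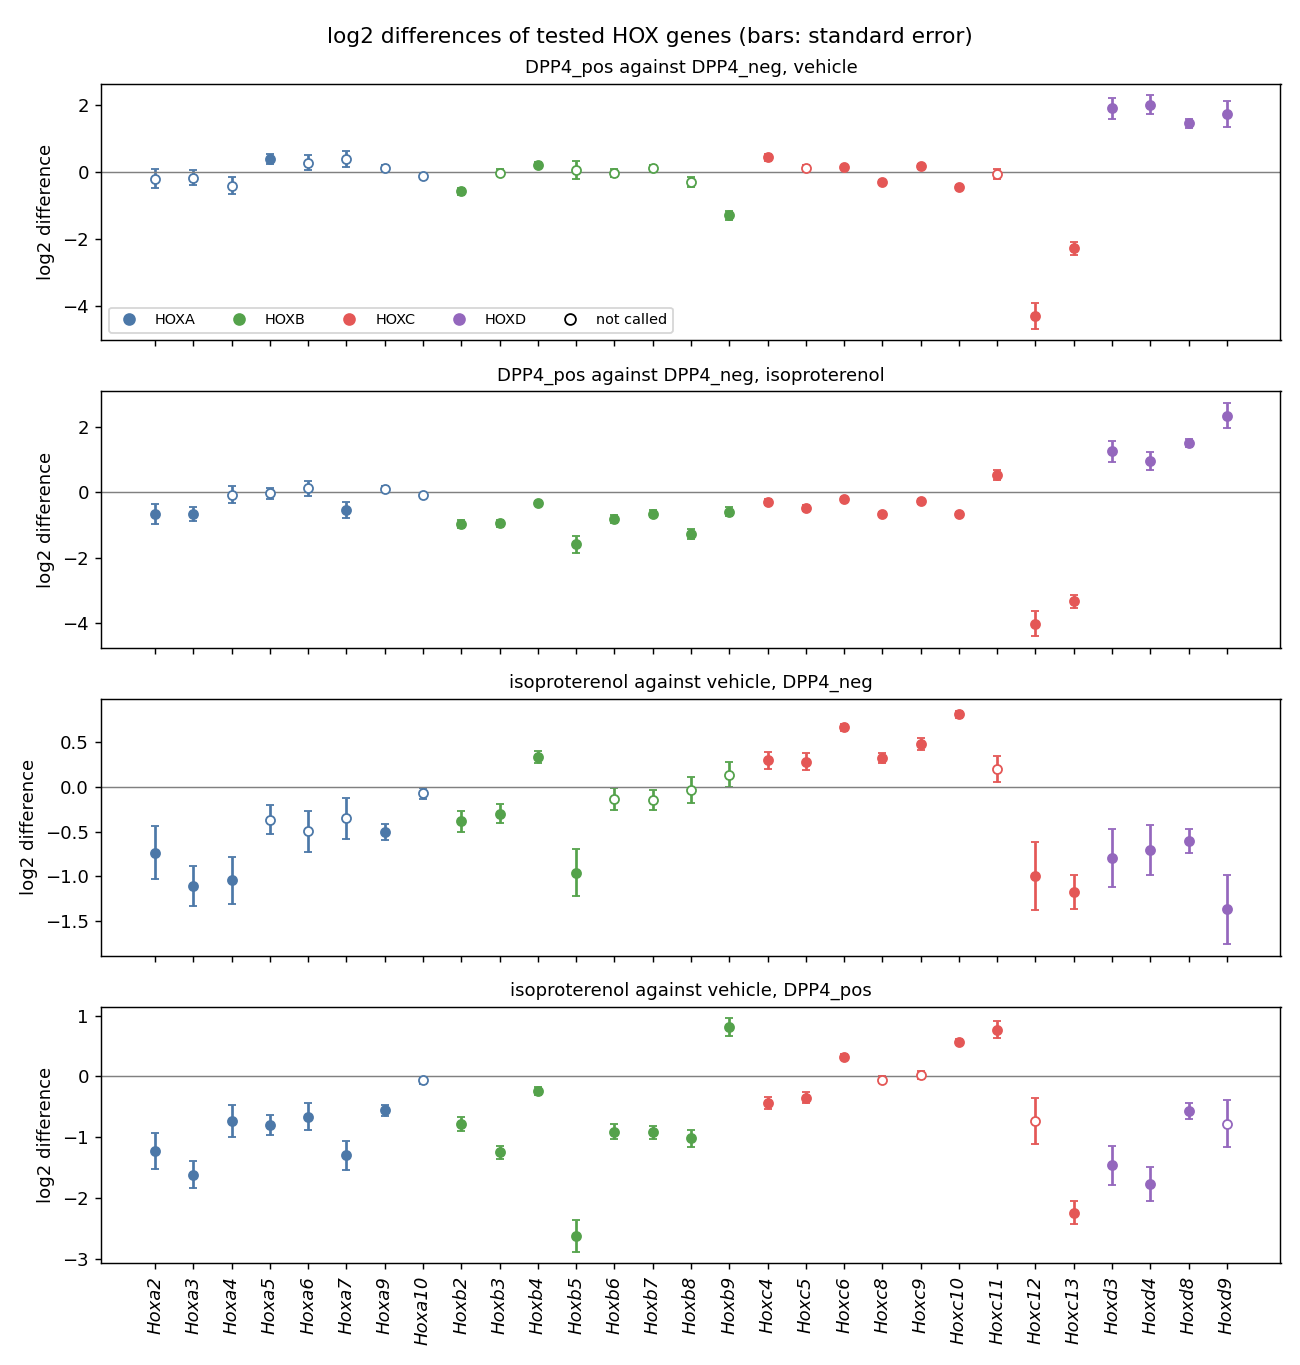
Each panel gives the log2 difference of tested HOX genes in one comparison, bars are standard errors, colours are clusters and open points have no call. Purple HOXD points lie above 0 in both population comparisons (favoured by the filter for Hoxd3 and Hoxd9), all 8 green HOXB points lie below 0 in the one under isoproterenol, and Hoxa2 to Hoxa4 lie below 0 in both responses.

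The difference between the responses was tested directly. Of 30 HOX genes, 16 had a lower response in DPP4_pos and 2 a higher one, where 31.0% of all genes tested had a lower and 31.6% a higher response. The HOX median was −0.45 against −0.02. Of 8 HOXB genes 7 responded lower and 1 higher, of 9 HOXC genes 7 lower and 1 higher, and 1 of 9 HOXA genes (Hoxa7) and 1 of 4 HOXD genes (Hoxd4) lower. With total-count scaling 5 HOXA genes responded lower. The call of Hoxb2 (−0.40 ± 0.17, limma adjusted p = 0.0395) ended on leaving out any of 10 libraries in turn (down to −0.27, limma adjusted p = 0.0916, without DPP4_pos isoproterenol replicate 4), with no filter and with quantile normalization (−0.08). That of Hoxd4 ended on leaving out any of 3 libraries (limma adjusted p up to 0.0596, without DPP4_neg isoproterenol replicate 1), with no filter and with quantile normalization, and that of Hoxa7 with quantile normalization. The largest with a mean of at least 50 were Hoxc13 (−1.07 ± 0.27), Hoxb8 (−0.99 ± 0.21) and Hoxb3 (−0.95 ± 0.15, limma adjusted p = 1.62e-05). The 2 with the higher response were Hoxb9 (0.68 ± 0.20) and Hoxc11 (0.57 ± 0.20), and neither kept a call with total-count scaling (0 higher and 20 lower HOX genes; 27.2% of all calls higher instead of 50.5%, with a median of −0.28 over all genes). That scaling also moved Hoxa10 from 0.01 ± 0.09 to −0.26, with a call.

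Under isoproterenol HOXB and most of HOXC were lower in DPP4_pos than in DPP4_neg, a comparison that shares its libraries with those above. DPP4_pos had 5 HOX genes higher and 20 lower than DPP4_neg, where 37.4% of all genes tested were higher and 37.0% lower, and the HOX median was −0.53 against −0.0044. Groups did not overlap for 21 HOX genes, against 63.9% of all genes tested. All 8 tested HOXB genes were lower, as were 8 of 9 HOXC genes (for Hoxc12 the filter favours this) and 4 of 9 HOXA genes. The 4 HOXD genes (for Hoxd3 and Hoxd9 the filter favours this) and Hoxc11 were higher. All-gene calls were 50.3% higher, and 34.3% with total-count scaling, whose median was −0.20, while HOX calls were 5 higher and 21 lower.

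Hoxc13, Hoxd8 and Hoxb8 differed most among genes with a mean of at least 50. Hoxc13 was 10.1-fold lower in DPP4_pos (25.8, 22.6, 16.1 and 9.40 against 197, 187, 155 and 199.5; log2 difference −3.33 ± 0.19). Hoxd8 was 2.83-fold higher (137, 160.3, 168 and 137 against 56.7, 41.8, 71.0 and 44.6; 1.50 ± 0.13). Hoxb8 was 2.43-fold lower (32.6, 26.1, 35.1 and 33.8 against 89.9, 71.9, 72.6 and 81.4; −1.28 ± 0.15, limma adjusted p = 6.47e-08). Its groups overlapped under vehicle (61.8, 65.4, 77.9 and 58.3 against 86.2, 96.4, 62.7 and 80.5). The call of Hoxa2 (−0.68 ± 0.30, limma adjusted p = 0.0445) ended on leaving out any of 11 libraries in turn (down to −0.32, limma adjusted p = 0.241, without DPP4_pos isoproterenol replicate 2), and with no filter, quantile normalization, a fit of only the groups compared, edgeR and DESeq2. The call of Hoxa7 (−0.55 ± 0.23) ended with those same alternatives and on leaving out any of 3 libraries, with a log2 difference of −0.21 without DPP4_pos isoproterenol replicate 4 (limma adjusted p = 0.223). That of Hoxa3 (−0.67 ± 0.22) ended without DPP4_pos isoproterenol replicate 2, the library with 15.7 normalized counts (−0.41, limma adjusted p = 0.0584).

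HOX proteins bind DNA with PBX, MEIS and PKNOX cofactors, and their genes are held on or off by Trithorax and Polycomb complexes. For the lists that follow, 32.1% of all genes tested rose and 33.6% fell in DPP4_neg, and 39.4% rose and 43.3% fell in DPP4_pos, with medians of −0.02 and −0.05. All 9 cofactor genes were tested, and 4 rose and 1 fell in DPP4_neg, while 4 rose and 3 fell in DPP4_pos (3 and 5 with total-count scaling), with median log2 differences of 0.15 and 0.08. Pknox1 rose by 0.84 ± 0.06 and 0.88 ± 0.06, and Pknox2 fell (−0.97 ± 0.06 and −1.07 ± 0.06). Of 28 Polycomb genes 12 rose and 9 fell in DPP4_neg, and 13 rose and 11 fell in DPP4_pos (10 and 14 with total-count scaling), with medians of 0.04 and 0.08, near the shares over all genes in DPP4_pos. Jarid2, which recruits Polycomb complex 2, rose from 434 ± 46.4 to 1455 ± 58.9 and from 661 ± 30.7 to 4205 ± 183, while the chromobox genes Cbx7 (−1.22 ± 0.17 and −2.38 ± 0.17) and Cbx6 (−0.67 ± 0.04 and −1.97 ± 0.04) fell. Of 14 Trithorax and H3K27 demethylase genes 7 rose and 2 fell in DPP4_neg, and 10 rose and 3 fell in DPP4_pos (7 and 5 with total-count scaling), with medians of 0.12 and 0.38. Wdr5 (0.93 ± 0.04), Dot1l (0.55 ± 0.05) and Kmt2a (0.49 ± 0.08) were among those that rose in DPP4_pos.

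Retinoic acid induces the first paralogs in the embryo, and the CDX factors act on the central ones. Of 14 tested genes of retinoic acid synthesis, breakdown and receptors 4 rose and 8 fell in each population, where 32.1% of all genes rose and 33.6% fell in DPP4_neg, and 39.4% and 43.3% in DPP4_pos. Between the populations under vehicle 3 were higher and 7 lower in DPP4_pos, where 31.6% of all genes tested were higher and 35.0% lower. The medians of the isoproterenol responses were −0.44 and −0.37. Aldh1a2, which makes retinoic acid, was at 8085 ± 463 normalized counts under vehicle in DPP4_neg and at 62.5 ± 6.93 in DPP4_pos. With isoproterenol Rdh10, which makes retinaldehyde, rose from 236 ± 13.7 to 3901 ± 199 in DPP4_pos, and Cyp26b1, which breaks retinoic acid down, fell from 3008 ± 53.2 to 898 ± 76.2 in DPP4_neg and rose from 626 ± 65.3 to 1588 ± 116 in DPP4_pos. Of the 10 upstream axial regulators, Cdx1, Cdx2, Cdx4, Evx1, Evx2 and Mnx1 were not tested, with 0 to 15 reads each in all libraries. Of the 4 tested, 2 rose and 2 fell in DPP4_neg, and 2 rose and 1 fell in DPP4_pos. Egr2, which acts on Hoxb2 in the hindbrain and is also an early response gene, rose from 93.1 ± 21.8 to 857 ± 26.1 in DPP4_neg and from 589.8 ± 59.8 to 1261 ± 125 in DPP4_pos, and the growth factor gene Gdf11 rose by 1.23 ± 0.06 and 1.06 ± 0.06.

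Of 33 tested positional transcription factors outside the HOX clusters, 18 were higher and 9 lower in DPP4_pos under vehicle, where 31.6% of all genes tested were higher and 35.0% lower. Foxc1 had 2341 ± 131 against 179 ± 13.6 normalized counts, Foxc2 172 ± 21.2 against 12.2 ± 1.54, and the hindlimb factor Pitx1 24.5 ± 2.58 against 83.0 ± 8.32. Under isoproterenol 13 rose and 11 fell in DPP4_neg, and 21 rose and 11 fell in DPP4_pos (15 and 12 with total-count scaling), with medians of 0.18 and 0.49, beside 32.1% and 33.6%, then 39.4% and 43.3%, of all genes. Of 20 noncoding RNAs listed from the HOX clusters, 10 were in the table and 1, Hoxaas3, was tested. It fell in DPP4_pos (−0.85 ± 0.32, limma adjusted p = 0.0175) from 17.2 ± 4.45 normalized counts, a call lost with quantile normalization, and its exons overlap those of Hoxa3 and Hoxa7, which fell too. Hotair, from the strand opposite HOXC, had 100 reads in all 16 libraries.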

How the data were processed

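RNA of 16 libraries was measured by RNA-seq. The deposited table holds a signal per gene and library, read counts that the authors normalized between libraries; per the submitters' processing notes the tools were DESeq2 1.6.3, featureCounts 1.4.6, HISAT2 2.0.1 and Trim Galore 0.4.1, and the builds GRCm38 and mm10. Their settings, the annotation and the use of strand: not given in the sources used here. Division by the smallest step of each library gave whole reads (within 0.001) for 100% of 280334 values above 0. Rows without a symbol (958, with 0.0926% of normalized counts) were left out of the named lists. Genes with at least 10 normalized counts in at least 4 libraries (14005 of 27179 entries) were fitted on log2(normalized count + 1) with limma 3.58.1 in R 4.3.3, with trend, 4 group means and all 16 libraries. A call is a Benjamini-Hochberg adjusted p under 0.05, and 5 comparisons were made. The script was tested on simulated data. Levels per kb use the longest RefSeq transcript in GENCODE M21 (GRCm38).

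The members and lists were chosen with earlier results of these data known. Values in every library are given for the tested HOX gene with the highest mean per kb in each cluster and, per comparison, for the 3 called HOX genes with the largest difference and a mean of at least 50. Results of 2 genes, which counts include, are not reported here. From other lists up to 3 called genes with the largest difference and that mean are named. Alternatives were pseudocounts of 0.5 and 5, no filter, a filter of 50, quantile normalization, a replicate block, each library left out, and fits of only the groups compared. Total-count scaling, edgeR 4.0.16 and DESeq2 1.42.0 on the recovered reads were added after seeing the data.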

Additional observations from a re-analysis of the deposited data

Results flagged for a closer look

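In 5 of 116 combinations of a HOX gene and a group, 1 library lay apart from the other 3, and chance gives about 5% of such combinations. These libraries were DPP4_neg vehicle replicate 2 for Hoxa2 (27.3 normalized counts) and DPP4_pos isoproterenol replicate 3 for Hoxa6 (17.5). The others were DPP4_neg isoproterenol replicate 1 for Hoxa9 (148), DPP4_pos isoproterenol replicate 4 for Hoxb6 (75.2) and DPP4_pos isoproterenol replicate 1 for Hoxc12 (1.12, which is 1 read).

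The response to isoproterenol differed between DPP4_pos and DPP4_neg for 18 of 30 HOX genes by the limma test of the difference itself, 16 lower and 2 higher. Of all genes tested 31.0% had a lower and 31.6% a higher response. Over both directions together the share called is near that of all genes, while the HOX calls lean to the lower response. The HOX median was −0.45 against −0.02 over all genes. The calls of Hoxa7, Hoxb2 and Hoxd4 ended under some alternatives, and those of Hoxb9 and Hoxc11 ended with total-count scaling. In HOXA and HOXD the differences in log2 were −0.95 for Hoxa7 and −1.07 for Hoxd4. In HOXB they were −0.40 for Hoxb2, −0.95 for Hoxb3, −0.57 for Hoxb4, −1.66 for Hoxb5, −0.78 for Hoxb6, −0.77 for Hoxb7, −0.99 for Hoxb8 and 0.68 for Hoxb9. In HOXC they were −0.74 for Hoxc4, −0.63 for Hoxc5, −0.35 for Hoxc6, −0.38 for Hoxc8, −0.47 for Hoxc9, −0.24 for Hoxc10, 0.57 for Hoxc11 and −1.07 for Hoxc13.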

How the results depend on the processing

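Among 150 results of single HOX genes, 149 kept their direction and call with a pseudocount of 0.5, 144 with 5, 142 without a filter, 143 each with edgeR and DESeq2, 130 with quantile normalization and 136 with total-count scaling. Total-count scaling reversed 2: Hoxc9 in DPP4_pos under isoproterenol (−0.26) and Hoxa10 in the difference of responses (−0.26), and it left 0 HOX genes with a higher response in DPP4_pos. Under isoproterenol 3 HOX genes, not 5, were higher in DPP4_pos with a filter of 50 and with only the groups compared in the fit, since Hoxd3 and Hoxd9 were then not tested. With the replicate block 148 results stayed the same, Hoxa2 in DPP4_pos against DPP4_neg under isoproterenol lost its call (adjusted p = 0.0530) and Hoxa5 in DPP4_neg gained one (0.0215) in limma. Same-numbered libraries did not deviate together more than others (correlations −0.231 to 0.131, against −0.180 to 0.163 for other numbers). This cannot exclude a shared animal or culture day, and the labels do not say whether the numbers pair libraries. With each library left out in turn, HOX genes that fell in DPP4_neg numbered 10 to 16 (14 with all), those that fell in DPP4_pos 20 to 22 (21), and those higher in DPP4_pos under vehicle 7 to 10 (9). Depth limits Hoxc12, Hoxd3 and Hoxd9, with 187 to 299 reads over 16 libraries.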
